A study of Mus musculus with 4 samples.

Results

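The genes that write, copy and remove DNA methylation were examined in embryonic stem cell (ESC)-derived cardiac cultures with and without *Taf4a*. The set was chosen by gene symbol as the DNA methyltransferases (*Dnmt1*, *Dnmt3a*, *Dnmt3b* and *Dnmt3l*), *Uhrf1* and *Uhrf2*, the Tet dioxygenases (*Tet1*, *Tet2* and *Tet3*) and *Tdg*. All 10 symbols were found among the 24637 genes of the table. *Taf4a* encodes a subunit of TFIID, the general transcription factor that assembles at promoters. Polyadenylated RNA was sequenced from 4 libraries made at one stage. A pair of them came from independent WT (Taf4+/+) ESC lines and a pair from independent *Taf4a*-/- lines, each line being a single derivation from a blastocyst of *Taf4a*+/- mice on a C57Bl6J background. The mutant allele lacks an internal pair of exons in every cell from the start, so the loss was neither conditional nor limited to cardiac cells. Both genotypes were kept on feeder fibroblasts with LIF, then grown for 5 days as embryoid bodies and for 9 days on gelatin. No agent distinguished the groups, which differ in the labels by genotype alone.

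Cytosine methylation at CpG pairs is laid down by Dnmt3a and Dnmt3b and is copied onto the new strand after replication by Dnmt1, which Uhrf1 guides to hemimethylated DNA. Dnmt3l resembles the de novo enzymes but has no catalytic activity and stimulates them in germ cells and early embryonic cells. Tet proteins oxidise methylated cytosine, and Tdg excises the most oxidised forms so that base excision repair can restore an unmodified cytosine. In mouse ESCs, *Dnmt3b*, *Dnmt3l* and *Tet1* are highly expressed and decline as cells leave pluripotency, while *Dnmt1* and *Uhrf1* follow proliferation. The assay measured transcripts, and methylation of the DNA itself was not measured.

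The libraries held 21732746 to 27733034 reads on genes. In WT replicates 1 and 2 the normalized count of *Taf4a* itself was 889 and 678, against 1722 and 1799 under the *Taf4a*-/- label, and all values below follow this order of libraries. The targeted gene was thus higher under the mutant label (log2 difference 1.18, standard error 0.16, adjusted p = 0.00569 from limma), and since its count spans the whole gene it cannot show whether the deleted exons were read. The genotypes are therefore those of the labels. Exons of *Taf4a* share 62 nucleotides, 1.34% of their union, with *4921531C22Rik* on the other strand, and the kit does not mark strand. That noncoding gene had 46.5, 42.6, 272 and 387 normalized counts. *Xist*, which coats the X chromosome that it silences, had 6.14, 7.27, 217 and 6470.0 normalized counts, and the Y-linked *Eif2s3y* had 1688, 0, 309 and 0, so the lines differed in sex-linked transcripts also within a genotype. Both genes were picked once their values had been seen. The label "cardiac cells" covered mixed cultures. In WT, 12 cardiomyocyte markers summed to 34467 and 32101 normalized counts beside 14269 and 17654 for 13 macrophage markers and 88801 and 70469 for 11 visceral endoderm and liver markers. Under the *Taf4a*-/- label the cardiomyocyte sums were 3715 and 3657, with 12 of 12 markers called lower and none at 0. The macrophage sums were 343 and 705 (13 of 13 lower) and the visceral endoderm and liver sums 2095 and 1476 (10 of 11 lower). *C1qa* and *Alb* were at 0 in both libraries. Some markers in these lists, *C1qa* and *Alb* among them, passed the filter on the mean count only through their WT values, so the calls in these lists are not read as support. Among all genes tested, 17.3% were called lower. *Myh6*, the alpha cardiac myosin heavy chain, had 4763, 6706, 323 and 431 normalized counts across the 4 libraries.

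*Dnmt3l* and *Tet1* were the members called higher in the libraries labelled *Taf4a*-/-, and no member was called lower. The 10 genes were all expressed in every library and passed the filter of a mean of at least 10 normalized counts, so 2 of 10 rose, 0 of 10 fell and 8 of 10 did not pass the test. The threshold for a call was a Benjamini-Hochberg adjusted p under 0.05 from limma on log2(normalized count + 1), taken over 16926 genes. Across these genes 28.6% were called, 11.3% higher and 17.3% lower. Before adjustment, 4 members had a limma p under 0.05, each of them higher under the mutant label, and voom also called 0 lower. The share of all genes under this unadjusted threshold was not counted and is at least the 28.6% called. The 4 are thus not read as a result about the members. Values of 7 members were higher in both *Taf4a*-/- libraries than in either WT library, and such an order was found for 34.5% of all genes. *Tdg* alone among the 10 had the opposite order, which 36.6% of all genes had. The median log2 difference of the members was 0.37, and that of all genes tested was -0.01. With 2 libraries against 2, an exact permutation test cannot give a p below 0.333. The limma test thus rests on a spread that is shared across genes. Its p-values weigh each difference against the spread of these 4 lines within genotypes, in part borrowed from other genes. The size of several differences depended on WT replicate 1. Without that library the log2 difference was 2.36 for *Dnmt3b*, 0.90 for *Uhrf1* and 0.59 for *Dnmt1*, against 1.39, 0.60 and 0.36 with it. That of *Tet2* alone fell, from 0.38 to 0.27.

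**Figure D1:**
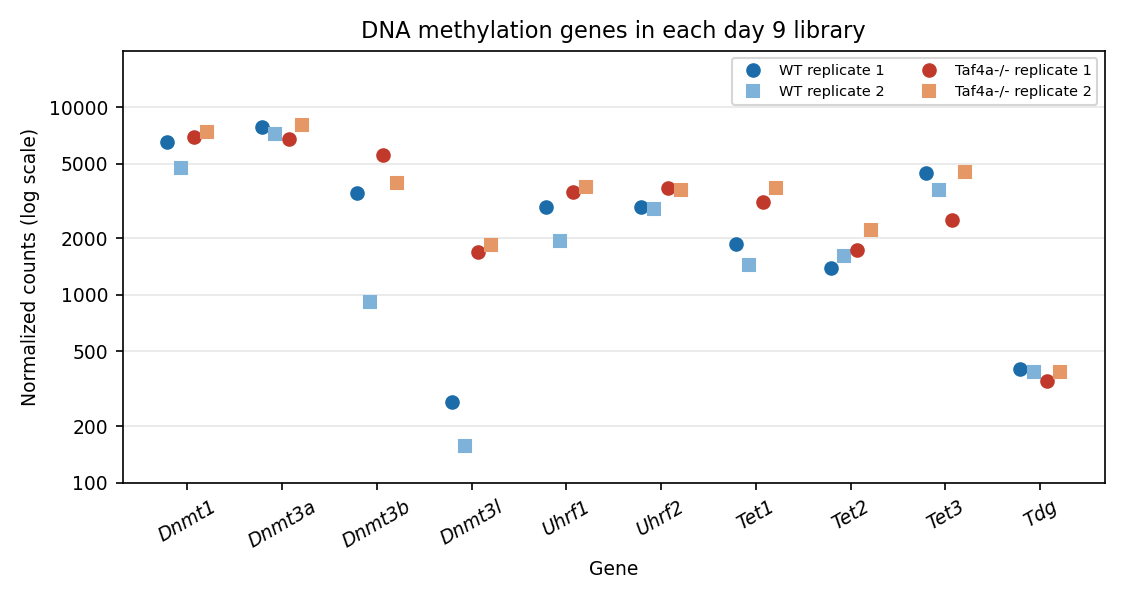
Normalized counts (log scale) of the 10 genes in each of the 4 day 9 libraries, with circles for replicate 1, squares for replicate 2, blue for WT and red or orange for Taf4a-/-. *Dnmt3l* has the widest gap between genotypes, from 269 in the higher WT library to 1694 in the lower *Taf4a*-/- library, and for *Dnmt3b* the WT libraries lie far apart.

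*Dnmt3l*, the catalytically inactive partner of the de novo enzymes, had 269 and 157 normalized counts in WT and 1694 and 1847 in the libraries labelled *Taf4a*-/-. Its lowest value under the mutant label was several times its highest in WT, and the means were 213 ± 79.4 (SD, n = 2) and 1770.2 ± 109 (SD, n = 2). The difference was 3.10 on the log2 scale (standard error 0.26), or 8.57-fold with a 95% interval of 5.51 to 13.3 (adjusted p = 0.0015 from limma). The gene (ENSMUSG00000000730) lies on chr10:77504692-77526367 of NCBIM37, on the plus strand, with 14 exons in its longest coding transcript and 1263 coding nucleotides. Its exons share 67 nucleotides, 2.24% of their union, with *Aire* on the other strand. *Aire*, a regulator of self-antigen expression in the thymus, had 59.6, 27.0, 296 and 462 normalized counts. The library kit does not mark strand, so reads from the shared bases cannot be assigned, while a pseudogene named *Dnmt3l-ps1* had at most 0.877 normalized counts.

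The sequence before the *Dnmt3l* starts is shown because this gene had the largest difference of the set. RefSeq gives 3 starts, and the 250 bases before each, read 5′ to 3′ on the plus strand of GRCm38.p6, are printed with CpG pairs in capitals. This build is not that of the counts, and no coordinate was moved between them. The windows are chr10:78042037-78042286, chr10:78049592-78049841 and chr10:78055085-78055334.
Dnmt3l first start: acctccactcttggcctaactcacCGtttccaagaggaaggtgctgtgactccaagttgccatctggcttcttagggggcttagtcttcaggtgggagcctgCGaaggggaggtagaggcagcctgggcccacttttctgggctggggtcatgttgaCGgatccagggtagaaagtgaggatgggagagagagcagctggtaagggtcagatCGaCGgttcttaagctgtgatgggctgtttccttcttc
Dnmt3l second start: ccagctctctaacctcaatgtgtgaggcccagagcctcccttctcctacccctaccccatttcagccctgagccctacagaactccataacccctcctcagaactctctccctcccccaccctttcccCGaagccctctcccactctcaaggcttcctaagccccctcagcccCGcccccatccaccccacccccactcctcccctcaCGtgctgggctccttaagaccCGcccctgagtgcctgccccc
Dnmt3l last start: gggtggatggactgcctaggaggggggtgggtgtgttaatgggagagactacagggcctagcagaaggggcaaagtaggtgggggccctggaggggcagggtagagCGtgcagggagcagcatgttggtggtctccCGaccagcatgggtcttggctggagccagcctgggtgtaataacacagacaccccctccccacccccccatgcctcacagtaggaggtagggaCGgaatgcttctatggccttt
These windows held 5, 4 and 3 CpG pairs. Over 32851 such windows of 27025 genes the median was 6, with quartiles of 2 and 16, and 49.6% of windows had 5 or fewer. The second window also held GGGCGG, counted on both strands as a GC box, which 32.7% of all windows held.

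*Dnmt3b*, a de novo methyltransferase of the epiblast and of centromeric repeats, had 3514 and 912 normalized counts in WT and 5582 and 3962 in the libraries labelled *Taf4a*-/-. Both mutant-labelled libraries were above both WT libraries, but WT replicate 1 held 3.85 times the count of WT replicate 2. The log2 difference of 1.39 (standard error 0.58, 95% interval -0.02 to 2.80) did not pass the test (adjusted p = 0.122 from limma). Without WT replicate 1 it was 2.36 with an adjusted p of 0.0162 from limma, and without WT replicate 2 it was 0.42 with an adjusted p of 0.281, so its size depended on which WT library was kept. *Dnmt3a*, the de novo enzyme that persists in somatic cells, had 7833 and 7204 against 6753 and 8028 normalized counts. Its genotypes overlapped, and the log2 difference of -0.03 had a 95% interval of -0.36 to 0.30 (adjusted p = 0.891 from limma). The interval of *Dnmt3a* thus left room for a fold between 0.779 and 1.23, and its sign was positive under other scalings of the libraries. Counts joined 18 annotated transcripts of *Dnmt3a* and 12 of *Dnmt3b*, so catalytic and inactive isoforms were not separated.

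*Dnmt1*, the maintenance methyltransferase, had 6494 and 4734 normalized counts in WT and 6907 and 7349 in the libraries labelled *Taf4a*-/-. WT replicate 2 stood lowest, and the log2 difference of 0.36 (standard error 0.17, 95% interval -0.06 to 0.78) did not pass the test (adjusted p = 0.162 from limma). *Uhrf1*, which binds hemimethylated CpG and ubiquitinates histone H3 to recruit Dnmt1, had 2938 and 1947 against 3519 and 3744 normalized counts. Its log2 difference was 0.60 (standard error 0.20, adjusted p = 0.0699 from limma), with the same WT library lowest as for *Dnmt1*. *Uhrf2*, a paralog that does not replace Uhrf1 in maintenance, had 2933 and 2877 against 3709 and 3609 normalized counts. Replicates of *Uhrf2* lay close together and the genotypes did not overlap, yet the log2 difference of 0.33 (standard error 0.11, adjusted p = 0.0635 from limma) missed the threshold. Its adjusted p ran from 0.0471 to 0.393 over 13 alternatives, and 2 of these, equal totals and leaving out WT replicate 1, called it.

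The promoters of *Dnmt1* and *Uhrf1* are shown for an element they shared and the other members lacked. The motif TTTCGCGC, an E2F-type element searched on both strands, was found in 1 window of each of these genes among 17 windows of the 10 members, and in 0.256% of all windows. It lay 219 bases before a *Dnmt1* start, in reverse complement, within chr9:20952824-20952853 (minus strand of GRCm38.p6), and 185 bases before a *Uhrf1* start, within chr17:56304117-56304146 (plus strand). A stretch just after this *Dnmt1* start was not found in the annotated transcripts of protein-coding genes, whereas that after the *Uhrf1* start was. In the 30 bases around each match the motif is in capitals.
Dnmt1: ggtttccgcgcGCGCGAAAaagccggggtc
Uhrf1: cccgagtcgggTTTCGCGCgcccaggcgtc
The related letters TTTGGCGC, held by 0.417% of all windows, were in none of the 17. A match is a match of letters and was not tested as a binding site.

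*Tet1*, the Tet dioxygenase of ESCs and primordial germ cells, had 1861 and 1439 normalized counts in WT and 3134 and 3725 in the libraries labelled *Taf4a*-/-. The genotypes did not overlap, and the log2 difference was 1.06 (standard error 0.17), a 2.09-fold rise with a 95% interval of 1.58 to 2.76 (adjusted p = 0.00838 from limma). *Tet2*, which is abundant in blood lineages as well as in ESCs, had 1392 and 1618 against 1731 and 2214. Its log2 difference of 0.38 (95% interval -0.01 to 0.78) did not pass the test (adjusted p = 0.125 from limma). *Tet3*, the dioxygenase of the oocyte and of differentiating cells, had 4487 and 3616 against 2496 and 4527. The libraries labelled *Taf4a*-/- differed from each other by 1.81-fold for *Tet3*, more than the genotypes did, and the log2 difference of -0.26 had a 95% interval of -0.94 to 0.42 (adjusted p = 0.514 from limma). *Tdg*, the thymine DNA glycosylase that removes oxidised methylcytosine, had 405 and 391 against 349 and 387. Its log2 difference was -0.11 (95% interval -0.51 to 0.28, adjusted p = 0.629 from limma). *Glt8d2*, on the other strand, shares 6.83% of the exon union of *Tdg* and had 57.0, 113, 17.6 and 17.7 normalized counts.

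**Figure D2:**
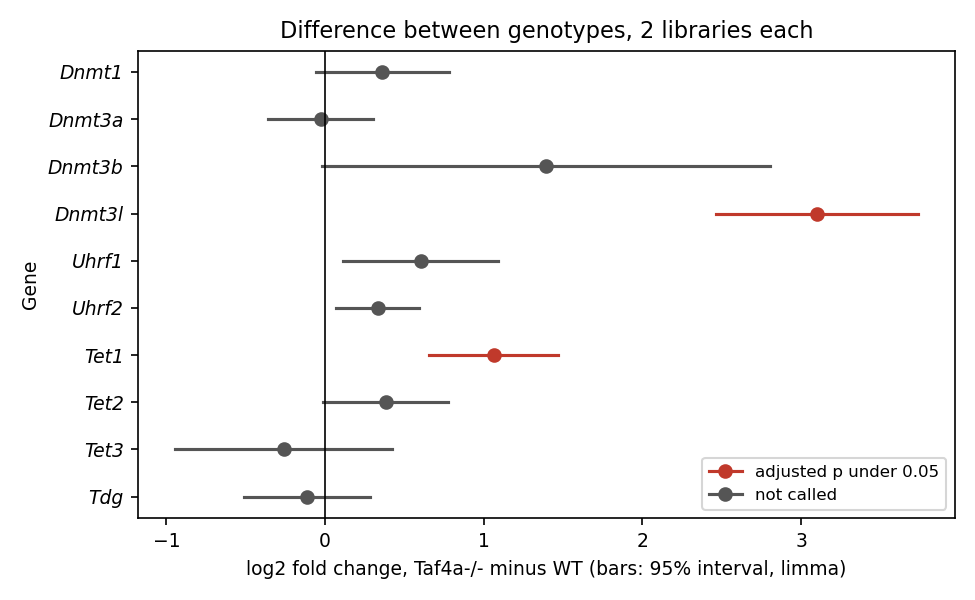
Log2 difference between genotypes (*Taf4a*-/- minus WT) of the 10 genes, where points are the limma estimates, bars their 95% intervals and red marks an adjusted p under 0.05. *Dnmt3l* at 3.10 and *Tet1* at 1.06 are called, and the widest interval, that of *Dnmt3b*, runs from -0.02 to 2.80.

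The window before the single RefSeq start of *Tet1*, the other member called, is printed for comparison with those of *Dnmt3l*. It covers chr10:62887325-62887574 of GRCm38.p6 and is read 5′ to 3′ on the minus strand, with CpG pairs in capitals.
Tet1: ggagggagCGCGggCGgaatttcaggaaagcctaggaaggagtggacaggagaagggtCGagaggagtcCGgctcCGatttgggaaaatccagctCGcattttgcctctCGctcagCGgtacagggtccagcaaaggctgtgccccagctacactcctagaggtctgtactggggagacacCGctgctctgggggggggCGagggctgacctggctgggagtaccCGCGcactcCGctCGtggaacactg
It held 15 CpG pairs, a number that 74.6% of all windows did not exceed, and GGGCGG. A stretch just after the *Tet1* start was not found in the annotated transcripts of protein-coding genes, whereas those after the *Dnmt3l* starts were. *Dnmt3b*, whose window at chr2:153649199-153649448 (plus strand) held 21, and the remaining members each had at least 1 window with 15 or more pairs. *Dnmt3l* was the member with no window above 5. TATAAA, found in 12.4% of all windows, and the octamer ATTTGCAT, found in 1.60%, were in 0 of the 17 member windows, searched on both strands.

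**Figure D3:**
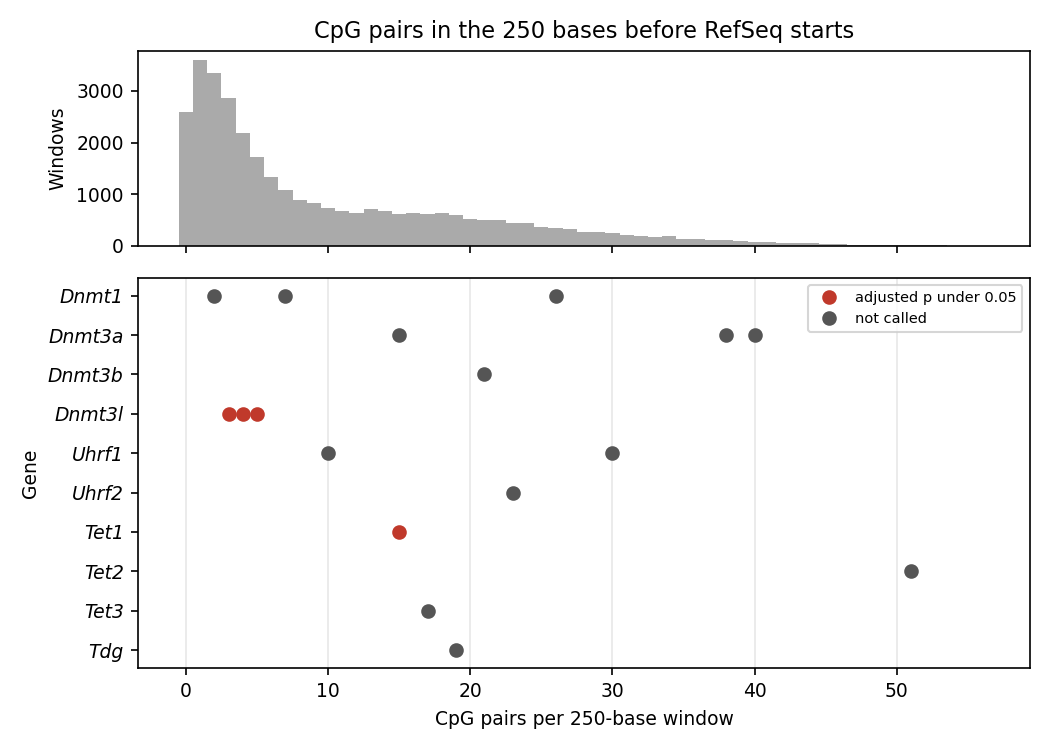
CpG pairs in the 250 bases before RefSeq starts, with the distribution over 32851 windows above and the 17 windows of the 10 genes below, 1 point for each distinct count of a gene and red for genes called. The 3 windows of *Dnmt3l* hold 3 to 5 pairs, that of *Tet1* 15 and that of *Tet2* 51.

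To compare levels between genes, normalized counts were divided by the length of the gene's exon union. On this scale the WT means ran from 1066 per kb for *Dnmt1* through 573 for *Uhrf1*, 452 for *Dnmt3a*, 433 for *Dnmt3b*, 365 for *Tet3*, 338 for *Uhrf2*, 164 for *Tet2*, 112 for *Tet1* and 74.0 for *Tdg* to 71.3 for *Dnmt3l*. In WT, *Dnmt1* lay above every other member in both libraries, and the ranges of *Uhrf1*, *Dnmt3a* and *Dnmt3b* overlapped, as did those of *Tet3* and *Uhrf2* and those of *Tdg* and *Dnmt3l*. *Dnmt3b*, with 688 per kb in WT replicate 1 and 179 in WT replicate 2, also spanned the ranges of *Tet3* and *Uhrf2*, so its place in WT is uncertain. In the libraries labelled *Taf4a*-/- the order was *Dnmt1* (1354 per kb), *Dnmt3b* (935), *Uhrf1* (853), *Dnmt3l* (592), *Dnmt3a* (444), *Uhrf2* (426), *Tet3* (317), *Tet1* (233), *Tet2* (214) and *Tdg* (68.5). *Dnmt3l*, last in WT, was in the fourth place here, with no overlap with its neighbours there, whereas *Dnmt3b* overlapped *Uhrf1*, *Dnmt3a* overlapped *Uhrf2*, and *Tet3*, *Tet1* and *Tet2* overlapped in sequence. These places depend on the length used. With the longest transcript in place of the exon union, *Uhrf2* had 822 per kb and *Dnmt3a* 776 in WT, both above *Uhrf1* at 681. *Dnmt3l* was then not last in WT, with 117 per kb beside 115 for *Tet1* and 114 for *Tdg*, and under the mutant label it had 972 per kb, below *Uhrf2* at 1035 and *Uhrf1* at 1013.

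Composition was compared within the families. *Tet3* made up 59.3% and 54.4% of the Tet transcripts per kb in WT and 36.0% and 45.3% in the libraries labelled *Taf4a*-/-, while *Tet1* went from 18.5% and 16.3% to 34.0% and 28.1%. The ratio of *Tet1* to *Tet3* per kb was 0.313 and 0.300 in WT and 0.946 and 0.620 under the mutant label, and these ranges did not overlap. *Tet2* took between 22.2% and 30.0% in the 4 libraries. Among the catalytic methyltransferases, *Dnmt1* took 51.6% and 59.5% in WT and 46.7% and 52.6% in the other libraries. The share of *Dnmt3b* was 28.8% and 11.8% in WT and 38.9% and 29.2% under the mutant label, so WT replicate 1 was close to the second of these. The ratio of *Dnmt3l* to *Dnmt3a* per kb was 0.191 and 0.121 in WT and 1.40 and 1.28 in the libraries labelled *Taf4a*-/-. That of *Dnmt3l* to *Dnmt3b* was 0.131 and 0.294 against 0.518 and 0.797. *Uhrf1* took 66.9% and 57.7% of the Uhrf pair in WT and 65.7% and 67.7% under the mutant label, but 49.7%, 40.0%, 48.3% and 50.6% with the longest transcript as length, so which of the pair was higher depended on the length. The ratio of *Uhrf1* to *Dnmt1* was 0.559 and 0.508 against 0.630 in each of the other libraries. Shares and ratios are given as values, since 2 libraries against 2 allow no permutation test under the threshold.

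**Figure D4:**
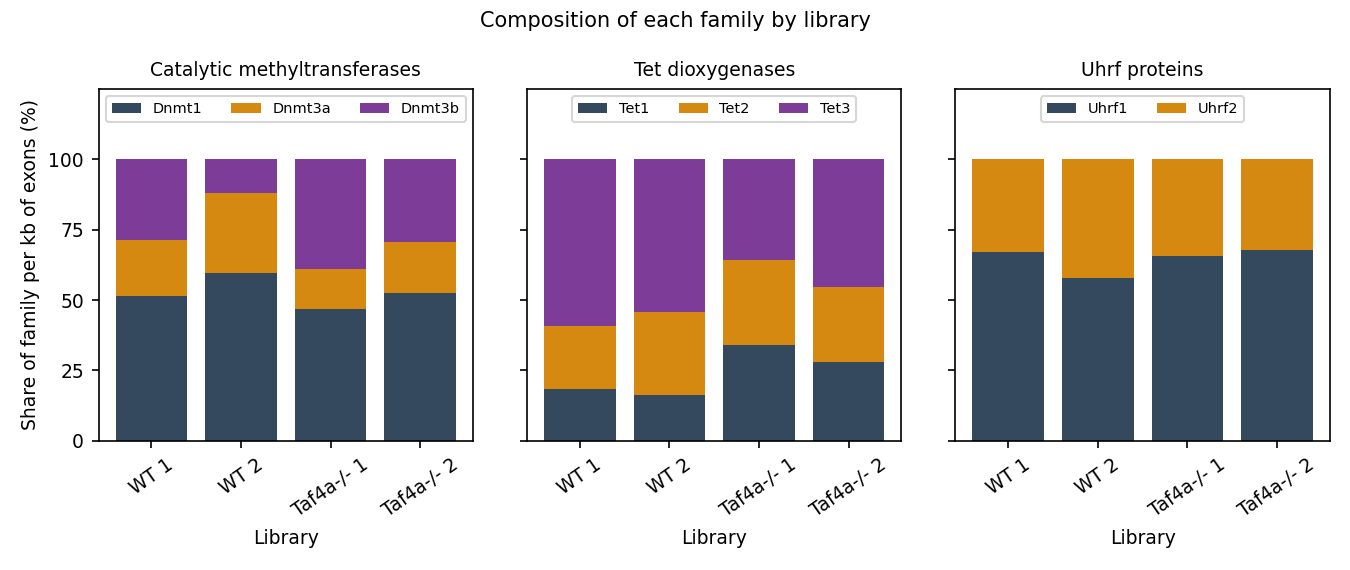
Share of each gene in its family's normalized counts per kb of exons (%), by library, for the catalytic methyltransferases, the Tet dioxygenases and the Uhrf proteins. *Tet1* takes 18.5% and 16.3% in WT and 34.0% and 28.1% in *Taf4a*-/-, whereas *Uhrf1* takes 57.7% to 67.7% in all 4 libraries.

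By the Euclidean distance between centred log2 profiles over the 4 libraries, the genes nearest to *Dnmt3l* among 16925 others were *Dppa2* (distance 0.162), *Clca4* (0.172) and *Dnahc8* (0.257). *Dppa2*, a gene of pluripotent and germ cells, had 31.6, 17.7, 202 and 250 normalized counts. *Dnahc8*, an axonemal dynein heavy chain, had 28.1, 14.5, 202 and 227. *Clca4* had 3.51, 2.08, 31.3 and 33.2, so it passed the filter only through the *Taf4a*-/- libraries and rests on few reads in WT. The nearest to *Tet1* were *Gm15964* (0.0456), *Gm15545* (0.0509) and *Gm15760* (0.0563), and the last of these was not itself called (adjusted p = 0.160 from limma). With 4 points a profile, likeness is a description only.

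Genes that work with the enzymes were read off the same fit. Each count of calls in a list below stands beside 11.3% of all genes tested called higher and 17.3% called lower. Of 13 recruitment and silencing partners, 4 rose and 0 fell, with a median log2 difference of 0.46. *Dppa3*, which protects methylated DNA in the zygote and opposes Uhrf1, had 21.9 and 15.6 normalized counts in WT and 224 and 178 in the libraries labelled *Taf4a*-/- (log2 difference 3.36). *Zfp57*, which maintains methylation at imprinted regions, went from 1187 and 1193 to 2416 and 2659 (1.09). *Hells*, a chromatin remodeller required for methylation of repeats, went from 3198 and 2292 to 4556 and 4700 (0.77), and *Setdb1*, a histone H3 lysine methyltransferase, rose by 0.62 on the log2 scale. Of 10 methyl-CpG readers 2 rose, *Mbd4* (0.69) and *Mbd1* (0.42), while *Zbtb4* fell (-0.95), and the median was 0.09. *Mbd3*, with -0.03, had the smallest difference of that list. Of 13 base excision repair genes 3 rose, the glycosylases *Neil2* (1.22), *Ung* (0.85) and *Nthl1* (0.62), and 0 fell, with a median of 0.33. The smallest differences of the partners and repair lists were those of *Dmap1* (0.19) and *Polb* (-0.18).

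Among 14 genes of Tet cofactors and partners, *Ogt*, the O-GlcNAc transferase that binds Tet proteins, rose from 7944 and 7356 to 12696 and 13985 normalized counts (log2 difference 0.80), and *Mgea5*, the enzyme that removes O-GlcNAc, rose by 0.60 on the log2 scale. *Idh2*, a mitochondrial source of the Tet cosubstrate alpha-ketoglutarate, fell from 7876 and 7591 to 4052 and 4410 (-0.87). The other 11, of which *Ogdh* had the smallest difference (-0.08), were not called, and the median was 0.11. Of 17 tested genes of methyl donor metabolism 4 rose and 0 fell, with a median of 0.30 and the smallest difference for *Mat2b* (0.02). *Tdh*, the threonine dehydrogenase of mouse ESCs, went from 288 and 205 to 1384 and 1231 normalized counts (2.42), and *Mat2a*, which makes S-adenosylmethionine, differed by 0.71, *Mthfd1* by 0.61 and *Ahcy* by 0.57. Of 6 tested deaminase and Gadd45 genes, *Apobec1* fell from 319 and 435 to 30.3 and 46.5 (-3.28), *Apobec2* fell (-2.14) and *Apobec3* rose (0.83), while *Gadd45g* was at 0.29 and the median at -0.05. *Apobec1* and *Apobec2* edit RNA in gut and act in striated muscle, respectively, and the macrophage and cardiomyocyte marker sums were lower in the same libraries. Their part in these differences was not tested.

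Germline genes whose promoters are methylated in somatic cells were read by their levels. Of 15 listed genes 14 were in the table, and 12 of these had both *Taf4a*-/- libraries above both WT libraries, 1 had them below and 1 overlapped. Among all genes tested, 34.5% had both above and 36.6% both below. A gene at 0 in WT cannot have lower values in the other libraries, so its order was in part fixed. *Mael*, a piRNA pathway gene, had 6.14 and 7.27 normalized counts in WT and 67.5 and 81.8 in the other libraries. *Tex19.1*, which restrains retrotransposons, had 113 and 86.2 against 1047 and 501, and *Hormad1*, a meiotic axis gene, had 9.64 and 3.12 against 43.1 and 39.8. *Brdt*, a testis bromodomain gene, had 91.2 and 88.3 against 94.0 and 50.9. The limma fit called 8 of the 11 genes that passed the filter higher, but several of them passed only because the *Taf4a*-/- libraries were high, so this count is not read as support. Untested were *Tex101* and *Slc25a31*, at 0 in WT, and *Asz1*, which had 13.2 and 12.5 in WT and 7.83 and 2.21 in the other libraries. The whole list summed to 358 and 315 normalized counts in WT and 1728 and 1103 in the other libraries.

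**Figure D5:**
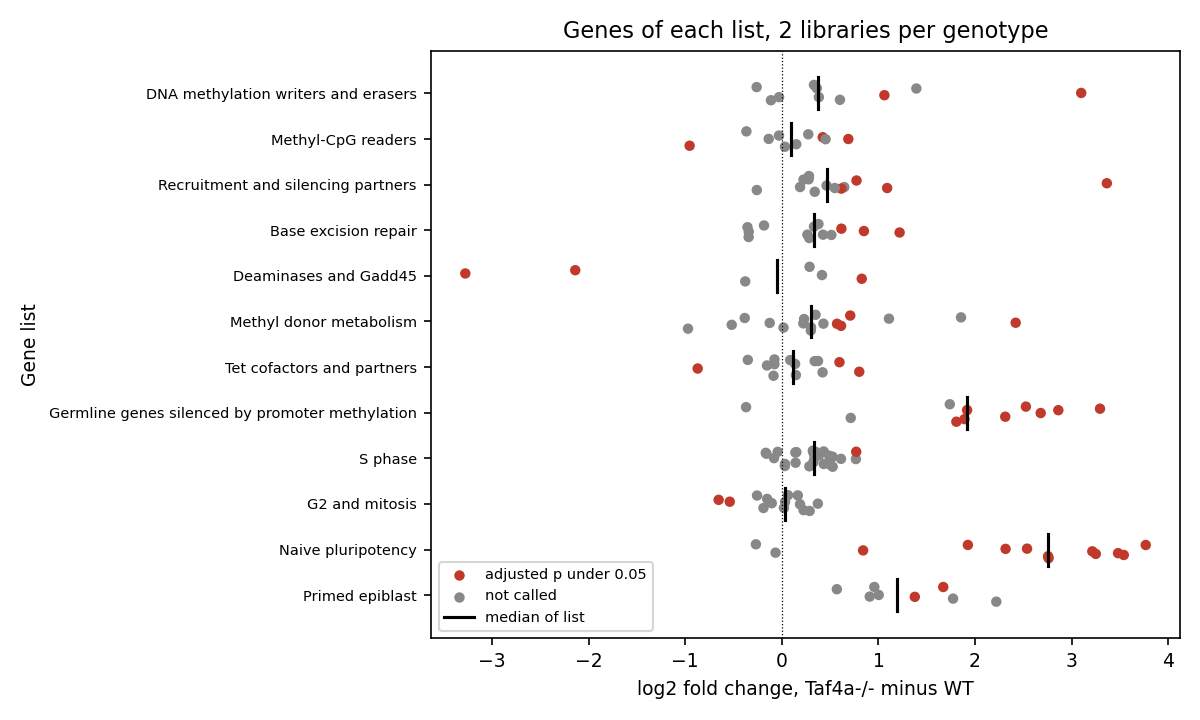
Log2 difference between genotypes (*Taf4a*-/- minus WT) of each tested gene, by list, with red for an adjusted p under 0.05 (limma) and a black bar at the median of the list. The writers and erasers have a median of 0.37 and the naive pluripotency markers of 2.76.

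Markers of pluripotency and of division are given beside the members. Over all genes tested, 11.3% were called higher and 17.3% lower. Of 13 naive pluripotency markers 11 rose and 0 fell (median 2.76), and they summed to 6396 and 4230 normalized counts in WT and 18203 and 19886 in the libraries labelled *Taf4a*-/-, with none at 0. *Pou5f1*, the Oct4 gene, had 1097, 278, 3113 and 3325 normalized counts, and *Nanog* had 563, 247, 2327 and 2764. Primed epiblast markers summed to 3402 and 1058 in WT and 5528 and 4853 in the other libraries, with 2 of 8 tested called higher and the untested *Pou3f1* at 0 in all but *Taf4a*-/- replicate 1, where it had 1.96. WT replicate 1 exceeded WT replicate 2 for these markers by a median of 1.65 on the log2 scale. That difference was 1.94 for *Dnmt3b*, 0.77 for *Dnmt3l* and a median of 0.34 for the 10 members. Between *Taf4a*-/- replicates 1 and 2 it was 0.28 for the markers, 0.49 for *Dnmt3b*, -0.13 for *Dnmt3l* and -0.14 for the members. A link between the markers and these genes was not tested. Of 26 S phase genes 1, *Pola1*, rose and 0 fell, and *Rfc3* was at 0.03. Their median difference was 0.33, beside 0.36 for *Dnmt1* and 0.60 for *Uhrf1*. Without WT replicate 1 these were 0.59, 0.59 and 0.90, and without WT replicate 2 they were 0.10, 0.13 and 0.31. The S phase sums were 62642 and 45331 in WT and 63640 and 69699 in the libraries labelled *Taf4a*-/-. Of 14 genes of G2 and mitosis 0 rose and 2 fell, *Cdk1* (-0.65) and *Ube2c* (-0.54), with *Mki67* at 0.02 and a median of 0.03. Fibroblast markers, which feeder cells and stroma express, summed to 544738 and 764918 against 217060 and 236817, and 7 of 10 were called lower. In bulk RNA, fewer cells of a type and less RNA per cell cannot be told apart, and the part of cell composition in the differences of *Dnmt3l* and *Tet1* was not tested.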

How the data were processed

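Libraries of poly(A) RNA (TruSeq v2, which does not mark strand) were sequenced from 2 WT and 2 *Taf4a*-/- lines. Per the labels, the authors used CASAVA 1.8, TopHat 1.3.3 on mm9, HTSeq 0.5.3p1 and DESeq, and they deposited gene counts divided by a size factor for each library, as normalized counts with decimal commas. The annotation release is not given in the sources used here. All values were whole multiples of 1 read (tolerance 0.02), so depth could be read from them: WT replicate 1 held 27733034 reads on genes and WT replicate 2 held 24537026, while *Taf4a*-/- replicate 1 held 24251499 and *Taf4a*-/- replicate 2 held 21732746.

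Normalized counts of 16926 genes with a mean of at least 10 were compared with limma 3.58.1 (R 4.3.3), using lmFit and a trended eBayes fit to log2(value + 1), a scale that understates the change of low genes, with Benjamini-Hochberg adjustment over these genes. The test was also tried on simulated data. There every gene had the same dispersion and far fewer genes differed than were called here, so its outcome is not used as support. Standard errors and 95% intervals are those of limma, with residual and prior degrees of freedom of 2 and 4.17. The members and gene lists were chosen with earlier results of these data known. Named genes are all members, *Taf4a*, from each list up to 3 called genes with the largest difference and no overlap between genotypes, the gene of each list with the smallest difference, the 3 nearest profiles of each called member, and fixed markers. Called genes of a list beyond these 3, *Aire*, *Glt8d2*, *4921531C22Rik*, *Dnmt3l-ps1*, *Pou3f1*, *Asz1*, *Tex101*, *Slc25a31*, *Xist* and *Eif2s3y* were named after their values were seen. Gene positions and lengths came from the NCBIM37 annotation, and promoter windows from RefSeq (GRCm38.p6), matched by symbol for 10 of 10 members. For 12 of the 17 windows a stretch just after the start was found in the annotated transcripts of protein-coding genes. Python 3.11.15 with matplotlib 3.10.9 drew the figures. Fits were repeated with other scalings, filters, pseudocounts, variance models and thresholds, with a replicate block, with each library left out in turn, and with voom.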

Additional observations from a re-analysis of the deposited data

How the results depend on the processing

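*Dnmt3l* and *Tet1* were called higher under each of 13 alternative settings, with log2 differences of 2.71 to 3.49 (adjusted p 1.19e-04 to 0.0345 from limma) and 0.88 to 1.25 (0.00688 to 0.046), and also at an adjusted p under 0.01 in the fit as reported. No member was called lower under any of these. The number of members called higher was 2 to 6 when 1 library was left out, where a lone library is assumed to vary like the others. It was 6 without WT replicate 1 and 2 without any of the rest. With equal totals it was 3, *Uhrf2* being added.

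Genes called higher numbered 1906 and genes called lower 2928. Without a variance trend they numbered 856 and 1741, and at an adjusted p under 0.01 they numbered 331 and 1119. Leaving out 1 library gave 624 to 2476 higher and 1222 to 3038 lower, the fewest lower without WT replicate 2 and the fewest higher without *Taf4a*-/- replicate 2. Without *Taf4a*-/- replicate 1, 625 were higher, and without WT replicate 2, 745. Of the calls 39.4% were higher as reported and 52.2% after quantile normalization, which moved the median of all genes from -0.01 to 0.11. The sign of 3 uncalled members changed. *Dnmt3a* was at 0.031 with equal totals and 0.0058 after quantile normalization, and ran from -0.15 to 0.096 when 1 library was left out. *Tet3* ran from -0.69 to 0.17 when 1 library was left out. *Tdg* was at 0.085 after quantile normalization. Medians of gene lists also depended on single libraries. When 1 library was left out, that of the methyl-CpG readers ran from -0.06 to 0.21, of the deaminases and Gadd45 genes from -0.46 to 0.32, of the Tet cofactors from -0.0026 to 0.19, of G2 and mitosis from -0.12 to 0.15, of S phase from 0.10 to 0.59, of the recruitment partners from 0.21 to 0.62, of base excision repair from 0.22 to 0.38, of methyl donor metabolism from 0.17 to 0.44, of the primed epiblast markers from 0.49 to 2.05 and of the members from 0.31 to 0.48. The cause of these changes was not tested.

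The labels number replicates alike in both genotypes but do not state a pairing. Over all genes tested, same-numbered libraries did not deviate together (correlation of deviations 0.01). A single value over all genes cannot settle a pairing for particular genes. The Y-linked *Eif2s3y* had 1688 and 309 normalized counts in the WT and *Taf4a*-/- replicate 1 libraries, and 0 in both replicate 2 libraries. A replicate block thus also separates the lines with and without this transcript, and its part in the block result was not tested. With a replicate block, 3 members were called higher, *Dnmt3b* being added (adjusted p = 0.028 from limma), and the genes called were 1536 higher and 2657 lower. Voom on recovered reads, chosen after seeing the data, called the same 2 members. The planned edgeR and DESeq2 fits were not run. The deposited values were handled as normalized values, and the reads recovered from them were used in the voom fit alone. Reads without molecular identifiers limit any precision drawn from depth to counting error, and low germline genes are the most affected.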
